A study of Mus musculus with 6 samples.

Results

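Immunoglobulin heavy and light chain features were examined in mature splenic mouse B cells that carried a retrovirus and were sorted for its green fluorescent marker. Members were the array rows whose platform annotation lists at least 1 symbol of the heavy chain locus (Igh), the kappa locus (Igk) or the lambda locus (Igl). There were 15 such rows among 24495 rows with distinct values. No pair of the 15 had identical values. Of the 15, 8 list 1 symbol and 7 list several, and 1 of the 8, Ighmbp2, matched by its name only, since it encodes a DNA and RNA helicase and no antibody chain. The 14 others fell into 3 heavy chain rows, 10 kappa rows and 1 lambda row.

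The first group carried MYD88 L265P (MYD88_L265P), the Toll-like and interleukin-1 receptor adaptor with a substitution known from human B cell lymphomas. The next carried IKK K171E (IKK_K171E), a construct of the kinase that acts on the inhibitors of NF-kB, labelled without its subunit. The third carried the empty GFP vector (EV). All cells had been activated, transduced, kept with mitogen for 36 h and then without anti-CD40 for 24 h. Each group had 2 arrays, described as biological replicates. Whether these came from separate mice or cultures is not said, and neither are strain and age, so tests measure the spread between these arrays only. The constructs were expressed from a retroviral vector, and only cells that took it up and shone green were collected.

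An antibody is built from paired heavy and light chains, each with a variable region (V) that binds antigen and a constant region. The constant region of the heavy chain sets the class. Every B cell joins 1 of many V genes to a joining segment and uses that V gene for its chain, so that the V gene RNA of a bulk sample reflects which clones it holds as well as how much each cell makes. B cells make the mu heavy chain (Ighm) as a membrane receptor, and on becoming antibody-secreting cells they raise immunoglobulin RNA strongly and switch to the secreted form. In such bulk arrays a smaller number of cells of a type and less RNA per cell cannot be told apart. The platform's annotation does not say which part of a transcript a feature reads, so membrane and secreted forms were not separated.

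The RefSeq gene table places the heavy chain genes on mouse chromosome 12, the kappa genes on chromosome 6 and the lambda genes on chromosome 16. Of 27 distinct symbols on the 15 rows, 26 were found in that table, and the exception was Igk-V21. The kappa rows cover much of the locus. Between Igkc and the V gene in question, the table places 14 V genes for Igkv6-14, 20 for Igkv6-20, 31 for Igkv8-30, 57 for Igkv4-55, 114 for Igkv10-96 and 142 for Igkv9-120, out of 162 kappa V genes and V pseudogenes. The number after the hyphen in a kappa V symbol rises in the same order for these genes. V genes of a family are close in sequence, and features with several symbols read several genes at once. Values are log2 expression as the authors normalized them, and levels of different features are not set against each other.

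With arrays left unpaired, no immunoglobulin row passed the test in any of the 3 comparisons. With the numbers in the array titles as a replicate block, 2 of the 15 rows passed in MYD88_L265P over IKK_K171E. That block also changed the calls against EV, as the last section shows. Ighm, read by 2 features, gave 2 different pictures, since 1 of them varied widely between arrays and the other little. Of the 10 kappa rows, all but Igkv6-20 and Igkv4-55 varied widely between replicate arrays of the same group, and the direction of that variation was shared by nearly all rows. Of the 15 rows, 0 passed in MYD88_L265P over EV, where 14.3% of all rows did, 0 in IKK_K171E over EV (0.665% of all rows) and 0 in MYD88_L265P over IKK_K171E (1.13% of all rows), by limma at a Benjamini-Hochberg adjusted p below 0.05 over the whole table. At an unadjusted p under 0.05 the counts were 2, 1 and 0 of 15, beside 37.4%, 16.0% and 18.7% of all rows.

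**Figure D1:**
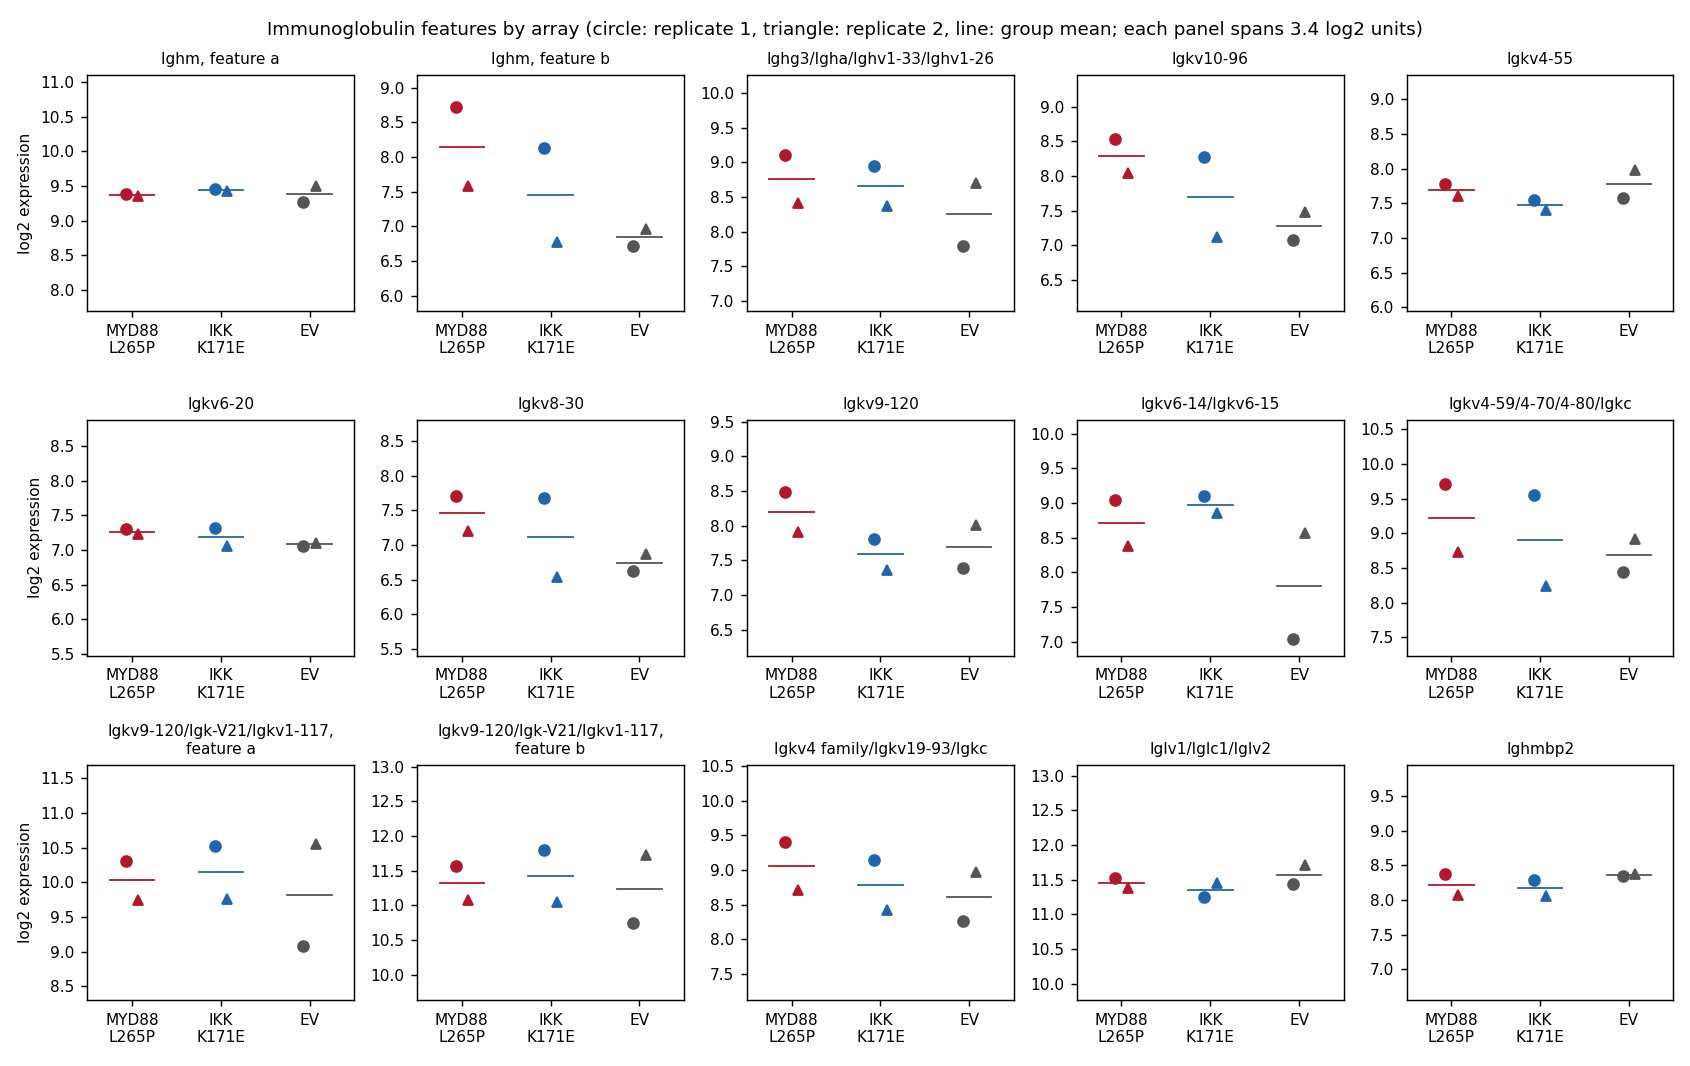
Log2 expression of the 15 rows on each array, with MYD88_L265P, IKK_K171E and EV from left to right; circles are replicate 1, triangles replicate 2 and lines group means, and every panel spans the same distance. Ighm feature a stays between 9.27 and 9.50, while Ighm feature b differs widely within MYD88_L265P and IKK_K171E, and most kappa rows within some of the groups.

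Among the heavy chain rows, Ighm encodes the constant region of IgM. The first of its features (10402864, here feature a, annotated from 12 sequence records) read 9.39 and 9.35 in MYD88_L265P, 9.45 and 9.43 in IKK_K171E, and 9.27 and 9.50 in EV. All 6 arrays lay within 0.23 of each other, with the EV arrays at both ends. Its log2 fold change was -0.01 in MYD88_L265P over EV (SE 0.10, adjusted p = 0.938) and 0.06 in IKK_K171E over EV (adjusted p = 0.832), with 95% intervals from -0.25 to 0.23 and from -0.19 to 0.30.

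The second Ighm feature (10403069, feature b, 6 records, 1 of them shared with feature a) read 8.72 and 7.57 in MYD88_L265P, 8.13 and 6.77 in IKK_K171E, and 6.71 and 6.97 in EV. Both MYD88_L265P arrays lay above both EV arrays, and the IKK_K171E arrays fell on either side of EV replicate 2. The log2 fold change in MYD88_L265P over EV was 1.31 (SE 0.49, 95% interval 0.13 to 2.49), and it missed the threshold (limma adjusted p = 0.108). In IKK_K171E over EV it was 0.61 (95% interval -0.57 to 1.79, adjusted p = 0.602), and in MYD88_L265P over IKK_K171E 0.70 (95% interval -0.48 to 1.88, adjusted p = 0.455). With 1 array left out this last value ran from 0.0223 without IKK_K171E replicate 2 to 1.38 without IKK_K171E replicate 1. The 2 features thus disagree about Ighm, with a range over the arrays of 0.231 in feature a and 2.01 in feature b, and a Pearson correlation of 0.14 between them over 6 arrays.

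The third heavy chain row lists Ighg3 and Igha, the constant regions of IgG3 and IgA, with the V genes Ighv1-33, annotated as a pseudogene, and Ighv1-26. It read 9.10 and 8.42 in MYD88_L265P, 8.94 and 8.37 in IKK_K171E, and 7.79 and 8.70 in EV. The groups overlapped, since EV replicate 2 lay between the arrays of each of the others. Log2 fold changes over EV were 0.51 (SE 0.36, adjusted p = 0.313) and 0.41 (SE 0.36, adjusted p = 0.629) in MYD88_L265P and IKK_K171E. Because the row lists constant regions and V genes together, it gives no separate level for any class. Ighd, Ighe and the other IgG constant regions were not analysed here.

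Of the kappa rows with 1 symbol, Igkv10-96 came closest to the threshold. It read 8.53 and 8.05 in MYD88_L265P, 8.27 and 7.12 in IKK_K171E, and 7.07 and 7.49 in EV. The MYD88_L265P arrays did not overlap EV, and IKK_K171E replicate 2 lay between the EV arrays. Its log2 fold change in MYD88_L265P over EV was 1.01 (SE 0.37, 95% interval 0.14 to 1.89, limma adjusted p = 0.0999). The call appeared with either IKK_K171E array left out, which changes the pooled spread and not the fold change (adjusted p = 0.0407, within a range of 0.0407 to 0.333 over the alternatives).

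Igkv8-30 read 7.71 and 7.21 in MYD88_L265P, 7.68 and 6.54 in IKK_K171E, and 6.62 and 6.87 in EV. Both MYD88_L265P arrays lay above both EV arrays, and IKK_K171E had 1 array above and 1 below both of them. The log2 fold change was 0.72 in MYD88_L265P over EV (SE 0.36, adjusted p = 0.184).

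Igkv9-120 alone read 8.48 and 7.91 in MYD88_L265P, 7.80 and 7.36 in IKK_K171E, and 7.39 and 8.003 in EV. Both MYD88_L265P arrays lay above both IKK_K171E arrays, and the EV arrays overlapped each group. It had the lowest adjusted p of the 15 rows in MYD88_L265P over IKK_K171E, where the log2 fold change was 0.61 (95% interval -0.03 to 1.25, adjusted p = 0.283).

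Igkv6-20 and Igkv4-55 varied least among the kappa rows. Igkv6-20 read 7.30 and 7.23 in MYD88_L265P, 7.32 and 7.06 in IKK_K171E, and 7.06 and 7.10 in EV, and the MYD88_L265P arrays stood just above EV. Its log2 fold change over EV was 0.18 in MYD88_L265P (95% interval -0.07 to 0.44, adjusted p = 0.241). Igkv4-55 read 7.78 and 7.61 in MYD88_L265P, 7.54 and 7.41 in IKK_K171E, and 7.58 and 7.98 in EV. It went the other way, with both IKK_K171E arrays below both EV arrays, a log2 fold change of -0.30 (SE 0.15, 95% interval -0.65 to 0.05, adjusted p = 0.380), and below both MYD88_L265P arrays too.

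Of the kappa rows with several symbols, the row of Igkv6-14 and Igkv6-15 had the lowest adjusted p of the 15 in IKK_K171E over EV. It read 9.04 and 8.38 in MYD88_L265P, 9.10 and 8.85 in IKK_K171E, and 7.04 and 8.57 in EV. Replicate 1 minus replicate 2 was -1.53 in EV, the widest difference of any replicate pair among the 15 rows. The log2 fold change was 1.17 in IKK_K171E over EV (SE 0.47, 95% interval 0.06 to 2.28, adjusted p = 0.287) and 0.91 in MYD88_L265P over EV (adjusted p = 0.195). Without EV replicate 2 these became 1.94 (adjusted p = 0.0481) and 1.67 (adjusted p = 0.0282), so the call rested on which EV array was kept. Over all alternatives the adjusted p ran up to 0.715 in IKK_K171E over EV and 0.753 in MYD88_L265P over EV.

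A pair of rows lists Igkc, the kappa constant region, with genes of the Igkv4 family. The row with Igkv4-59, Igkv4-70 and Igkv4-80 read 9.71 and 8.74 in MYD88_L265P, 9.56 and 8.24 in IKK_K171E, and 8.45 and 8.92 in EV. The row that adds Igkv4-68, Igkv4-72, Igkv4-77 and Igkv19-93 read 9.40 and 8.71 in MYD88_L265P, 9.15 and 8.42 in IKK_K171E, and 8.26 and 8.96 in EV. In both rows replicate 1 of MYD88_L265P and of IKK_K171E exceeded every EV array while replicate 2 did not, so the groups overlapped. Their log2 fold changes in MYD88_L265P over EV were 0.54 (SE 0.47, adjusted p = 0.414) and 0.45 (SE 0.34, adjusted p = 0.355). These rows share 7 sequence records and are not separate observations of kappa RNA.

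Another pair lists Igkv9-120, Igk-V21, Igkv1-117 and Map3k20, a kinase gene that the RefSeq table places on chromosome 2, outside the kappa locus. The first, feature a, read 10.32 and 9.74 in MYD88_L265P, 10.53 and 9.76 in IKK_K171E, and 9.09 and 10.56 in EV. Feature b read 11.57 and 11.08 in MYD88_L265P, 11.80 and 11.05 in IKK_K171E, and 10.74 and 11.72 in EV. In each, the EV arrays enclosed or nearly enclosed the other arrays, and log2 fold changes over EV lay between 0.09 and 0.33, with SE of 0.48 and 0.37. They share 7 records as well, and correlated at 0.984 (Pearson) over the 6 arrays.

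The single lambda row lists Iglc1, the constant region of lambda 1, with Iglv1 and Iglv2. It read 11.53 and 11.38 in MYD88_L265P, 11.25 and 11.45 in IKK_K171E, and 11.43 and 11.71 in EV. The groups overlapped, and log2 fold changes over EV were -0.11 (SE 0.13, adjusted p = 0.519) in MYD88_L265P and -0.22 (adjusted p = 0.462) in IKK_K171E. The replicate SD of this row, 0.15, was below that of every kappa row except Igkv6-20. Ighmbp2 read 8.37 and 8.07 in MYD88_L265P, 8.29 and 8.05 in IKK_K171E, and 8.35 and 8.38 in EV, with log2 fold changes over EV of -0.14 (adjusted p = 0.434) and -0.19 (adjusted p = 0.537).

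The spread between replicates set the reach of these tests. The pooled SD between replicate arrays had a median of 0.520 over the 15 rows, against 0.104 over all rows. It exceeded the 90th percentile of the table (0.220) in 10 rows and the 99th (0.509) in 8. The highest value was 0.732 in Ighm feature b, and the lowest 0.096 in Ighm feature a. The 5 rows with the narrower spread were Ighm feature a, Igkv6-20, Igkv4-55, the lambda row and Ighmbp2.

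**Figure D2:**
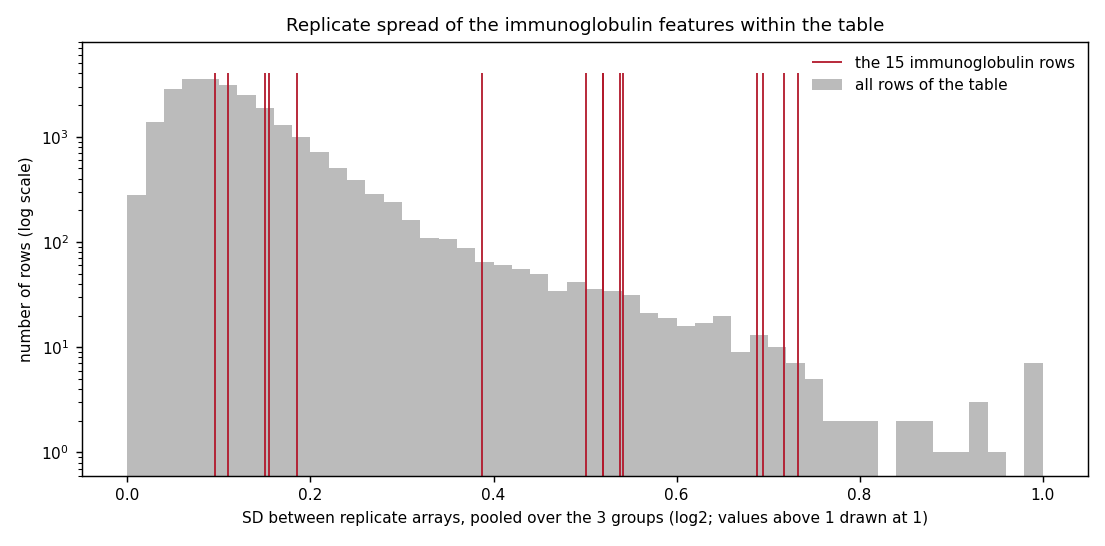
Number of rows (log scale) by the SD between replicate arrays pooled over the 3 groups, on the log2 scale; grey bars are all rows and red lines the 15 rows. Most lines lie in the thin right tail, with a median of 0.520 against 0.104 over all rows.

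This spread had a direction. In MYD88_L265P, replicate 1 read higher than replicate 2 in 15 of 15 rows, by a median of 0.51, where 50.9% of all rows did. In IKK_K171E replicate 1 was higher in 14 of 15 (median difference 0.57, 46.7% of all rows), the exception being the lambda row. In EV replicate 1 was lower in 15 of 15, by a median difference of -0.41, where 48.1% of all rows had the higher value in replicate 1. Without Ighmbp2, replicate 1 was higher in 14 of 14 rows in MYD88_L265P and 13 of 14 in IKK_K171E, and lower in 14 of 14 in EV. Differences above 0.5 between the replicates of a group were found in 8, 8 and 6 of 15 rows in MYD88_L265P, IKK_K171E and EV, beside 1.34%, 3.50% and 4.89% of all rows.

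Among the 10 rows with the wider spread, MYD88_L265P replicate 1 was the highest array in 7 and EV replicate 1 the lowest in 7. All 45 pairs of these rows correlated positively over the 6 arrays, with Pearson values from 0.51 to 0.98 and a median of 0.81. The points share the arrays, some rows share symbols and records, and the 10 rows were picked by their spread in these data. These values thus describe the set and are no test. Heavy chain feature b of Ighm and kappa V genes from both ends of the locus were in this set. Outside it, the lambda row correlated with the rows of the set at values from -0.31 (Igkv8-30) to 0.34 (Igkv9-120).

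Jchain encodes the chain that joins IgM and IgA polymers and is a marker of antibody-secreting cells. Jchain, named after its values were seen, read 11.82 and 11.28 in MYD88_L265P, 10.16 and 8.18 in IKK_K171E, and 8.86 and 9.81 in EV. In every group the replicate with more Jchain was the one with higher immunoglobulin rows, except for the lambda row in IKK_K171E. The mean log2 level of 10 plasma cell markers, Jchain among them, was 9.92 and 9.63 in MYD88_L265P, 9.10 and 8.56 in IKK_K171E, and 8.79 and 8.94 in EV, with the same replicate higher in each group. Single markers were higher in replicate 1 in 9 of 10 in MYD88_L265P, 10 of 10 in IKK_K171E and 4 of 10 in EV, where Xbp1, Ell2, Derl3 and Tnfrsf17 went against the immunoglobulin rows. Without Jchain, left out after its values were seen, the mean of the other 9 differed between replicates 1 and 2 by 0.26 in MYD88_L265P, 0.37 in IKK_K171E and -0.061 in EV. The part of antibody-secreting cells in the spread of the immunoglobulin rows was not tested.

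**Figure D3:**
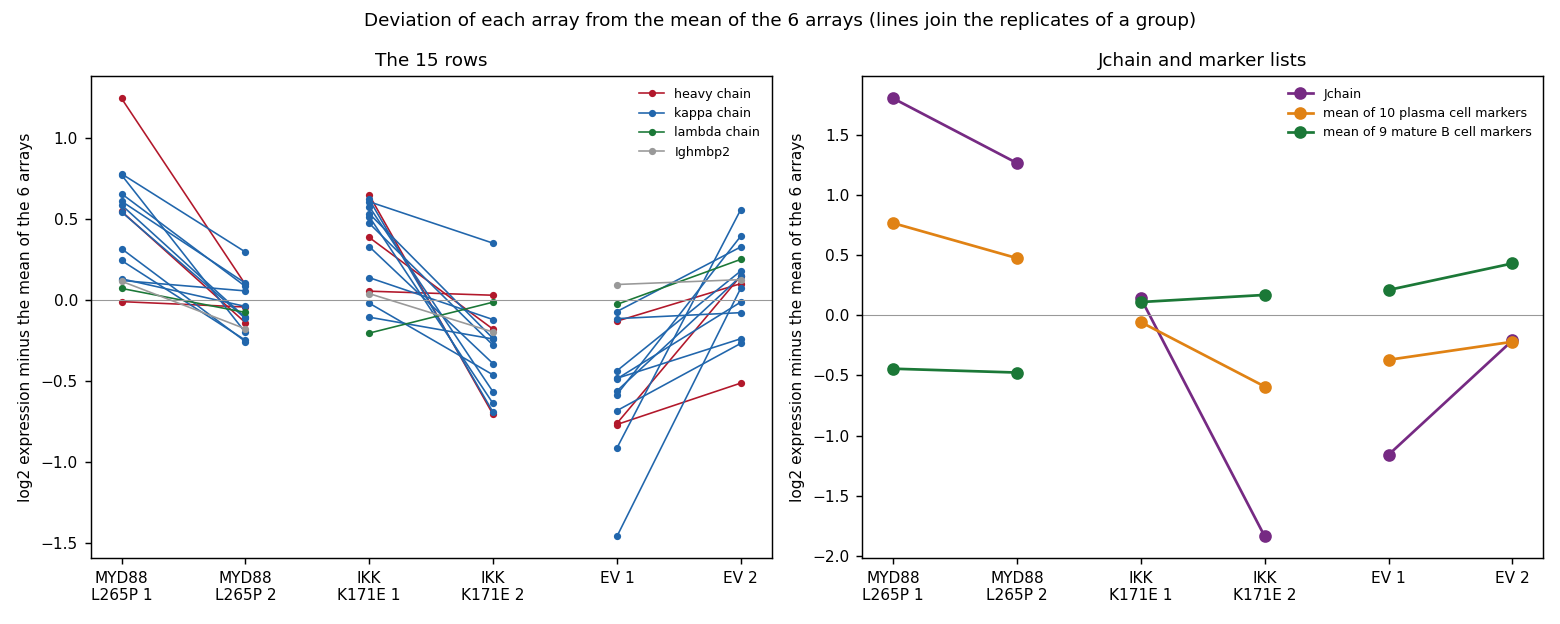
Deviation of each array from the mean of the 6 arrays on the log2 scale, for the 15 rows (left) and for Jchain and the mean of 2 marker lists (right); lines join the 2 arrays of a group. Nearly all rows and Jchain are higher in replicate 1 of MYD88_L265P and IKK_K171E and in replicate 2 of EV.

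As a set, and with arrays left unpaired, the 15 rows leaned above 0 in each comparison without passing in any. This lean depended on the pairing. The title numbers as a replicate block turned most of the positive values negative in both comparisons against EV, and some rows passed, as the last section shows. In MYD88_L265P over EV, 11 of 15 log2 fold changes were positive with a median of 0.45, where 33.1% of all rows were positive with a median of -0.11. The MYD88_L265P arrays had lower medians over all rows (8.05 and 8.03) than the EV arrays (8.13 and 8.12). With a common median the all-row median fold change was -0.03, so the shares of all rows given here depend on the scaling. Both MYD88_L265P arrays exceeded both EV arrays in 4 rows (Ighm feature b, Igkv10-96, Igkv8-30 and Igkv6-20), as in 22.8% of all rows, and lay below both in 0, against 47.7% of all rows. The median was 0.10 without MYD88_L265P replicate 1, 0.78 without MYD88_L265P replicate 2, 0.09 without EV replicate 1 and 0.80 without EV replicate 2. The 95% interval reached a 2-fold increase in 9 of 15 rows, a 2-fold decrease in 0, and lay within 2-fold either way in 6.

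In IKK_K171E over EV, 11 of 15 were positive with a median of 0.19, beside 40.1% and -0.04 over all rows. The median turned to -0.06 without EV replicate 1 and to -0.16 without IKK_K171E replicate 1, and was 0.49 without EV replicate 2 and 0.57 without IKK_K171E replicate 2. Both IKK_K171E arrays exceeded both EV arrays in 1 row, that of Igkv6-14 and Igkv6-15 (17.2% of all rows), and lay below in Igkv4-55 and Ighmbp2 (27.8% of all rows). Intervals reached a 2-fold increase in 8 rows. Both comparisons against EV draw on the same 2 EV arrays.

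In MYD88_L265P over IKK_K171E, 11 of 15 were positive with a median of 0.11, beside 38.5% and -0.06 over all rows. With a common median the all-row value was 0.02. Igkv9-120 and Igkv4-55 had both MYD88_L265P arrays above both IKK_K171E arrays (20.5% of all rows), and Ighm feature a had both below (36.1% of all rows). The median was -0.08 without MYD88_L265P replicate 1 and also without IKK_K171E replicate 2. It was 0.30 without MYD88_L265P replicate 2 and 0.29 without IKK_K171E replicate 1. For 7 rows the interval held a 2-fold increase and for 2 of the 15 rows a 2-fold decrease. Without Ighmbp2, 11, 11 and 10 of 14 rows were positive in MYD88_L265P over EV, IKK_K171E over EV and MYD88_L265P over IKK_K171E. The medians were then 0.47, 0.20 and 0.16.

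**Figure D4:**
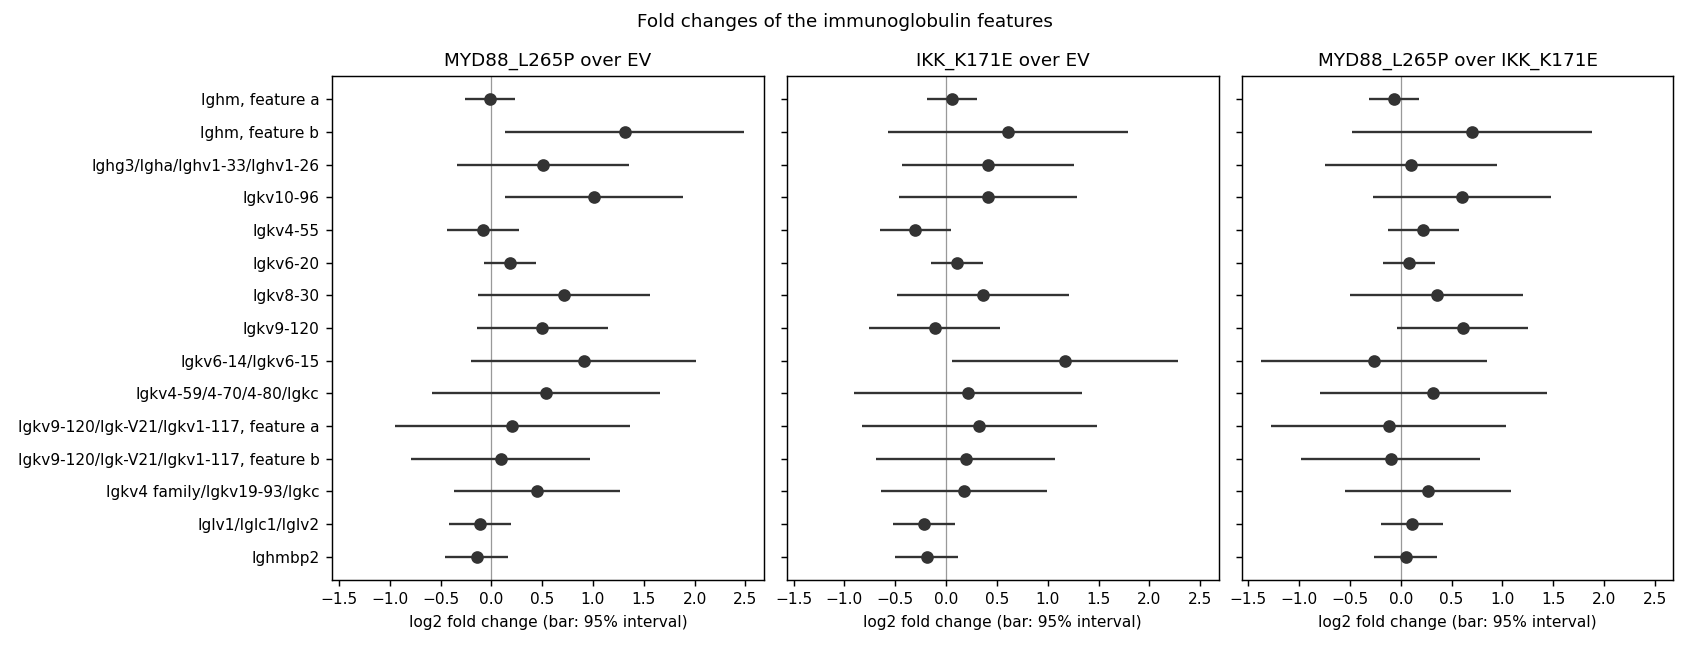
Log2 fold changes of the 15 rows with 95% intervals from limma, for MYD88_L265P over EV, IKK_K171E over EV and MYD88_L265P over IKK_K171E. Intervals are narrow around 0 for Ighm feature a and wide for Ighm feature b and most kappa rows.

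Genes that act with immunoglobulin chains or on their loci did pass in MYD88_L265P over EV, in lists of the wider pathway. Among partners of the chains, 2 of 10 measured genes rose and 2 fell, where 8.09% of all rows were called higher and 6.2% lower in this comparison. The chaperones Hspa5 (BiP, which holds unassembled heavy chains) and Hsp90b1 rose by 0.75 and 0.59, and the receptor subunit gene Cd79b fell by 0.67 and the IgM Fc receptor gene Fcmr fell by 1.97 (log2 fold changes, here and in the lists that follow). Jchain stood at 2.22 (SE 0.62, limma adjusted p = 0.0580), and at adjusted p = 0.0474 when rows with 1 symbol were tested alone. Cd79a, the other subunit that carries surface immunoglobulin, read 10.52 and 10.77 in MYD88_L265P, 10.62 and 10.62 in IKK_K171E, and 11.24 and 10.88 in EV, and did not pass in any of the comparisons.

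Of 19 genes of immunoglobulin transcription, 3 rose and 3 fell in MYD88_L265P over EV (8.09% and 6.2% of all rows). Prdm1 (2.47) and Xbp1 (1.26), regulators of antibody-secreting cells, and the octamer coactivator gene Pou2af1 (0.51) rose. Ikzf3 (-0.58), Ebf1 (-0.52) and Ets1 (-0.39), which encode B cell transcription factors, fell. Against IKK_K171E, 4 of the 19 rose and 0 fell (0.559% and 0.567% of all rows), which were these 3 risers (2.19, 1.20 and 0.71) and Pou2f2, the gene of OCT2, which binds the octamer of V gene promoters (0.65). The log2 fold changes of these transcription factor genes thus passed where those of the immunoglobulin rows did not. Whether they differ from the immunoglobulin rows was not tested.

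Of 11 genes that act on membrane or secreted heavy chain RNA, 4 rose and 1 fell in MYD88_L265P over EV, beside the same 8.09% and 6.2% of all rows. Ell2, the elongation factor that favours the secreted form, rose by 1.10 and Hnrnpll, an RNA-binding protein of plasma cells, by 1.29. Ptbp1 rose by 0.86 and the polyadenylation factor gene Cstf2 by 0.44, and Zfp318, which IgD expression needs, fell by 1.77. Of 18 genes of class switching and hypermutation 6 rose and 1 fell (8.09% and 6.2% of all rows), led by the exonuclease gene Exo1 (1.52), the transcription factor gene Batf (1.46), and Lig4 (1.05) and Rif1 (1.04), which act in end joining of DNA breaks. Stat6, the transducer of interleukin-4 signals, fell (-0.64). Of 7 genes of recombination and the surrogate light chain, Rag1 and Igll1 among them, 0 passed in any comparison.

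In IKK_K171E over EV 0 genes of these 5 lists passed, by limma with Benjamini-Hochberg adjustment, where 0.665% of all rows did, 0.502% higher and 0.163% lower. This depended on the rows tested. When rows with 1 symbol were tested alone, Bach2 (-0.90), Ets1 (-0.57), Irf8 (-0.84) and Exosc3 (0.62) passed (limma adjusted p = 0.0371, 0.0430, 0.0489 and 0.0397). In MYD88_L265P over EV the same setting added Bach2 (-0.51), Cpsf2 (0.37), Pcf11 (-0.32) and Msh6 (0.52) to Jchain. In MYD88_L265P over IKK_K171E with all rows tested, Lig4 (0.88) was the 1 gene of the 5 lists to pass outside the transcription list. Rows with 1 symbol alone added Fcmr (-1.11), Ell2 (0.96) and Zfp318 (-0.996) there (limma adjusted p = 0.0449, 0.0445 and 0.0408).

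Cell identity was read from marker genes. Mature B cell markers averaged 11.03 and 11.00 in MYD88_L265P, 11.59 and 11.65 in IKK_K171E, and 11.69 and 11.91 in EV, and 6 of 9 were lower in MYD88_L265P than in EV, among them Fcer2a (-1.81) and Cr2 (-1.31). Plasma cell markers had 4 of 10 higher (Prdm1, Xbp1, Ell2 and Derl3) and 0 lower in that comparison, in which 8.09% of all rows were called higher and 6.2% lower. Of the markers of other cell types, 2 of 8 T cell genes (Cd3e and Cd4), 1 of 9 monocyte and macrophage genes (Adgre1), 1 of 8 NK cell genes (Klrd1) and 1 of 8 neutrophil genes (Ly6g) were lower. Of 8 dendritic cell genes Ccr9 was higher and Flt3 and Zbtb46 lower, and 0 of 5 erythroid genes passed. In IKK_K171E over EV, 2 dendritic cell genes were higher, Flt3 (0.75) and Itgax (0.68), beside 0.502% of all rows. Of the 9 monocyte and macrophage genes 0 passed there, with a median log2 fold change of 0.53. Lyz2 (1.41, limma adjusted p = 0.0672) and Csf1r (1.22, 0.0517) had the largest rises, while Adgre1 (-1.17, 0.05002) and Cd163 (-0.06) had lower means. When rows with 1 symbol were tested alone, Lyz2, Csf1r, Adgre1 and the B cell gene Cd22 (-0.64) passed. Myd88 read 12.25 and 12.31 in MYD88_L265P, against 9.30 and 9.35 in EV, and Ikbkb, which encodes the beta subunit of IKK, 11.35 and 10.68 in IKK_K171E, against 9.98 and 10.22 in EV (log2 fold change 0.91, limma adjusted p = 0.107).

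The rows outside the set whose profile was most like that of Ighm were listed from 21475 rows with 1 symbol. For feature a they were Tor3a, Meioc and Lrpap1, with Pearson values of 0.988, 0.985 and 0.968 over the 6 arrays. For feature b they were Gm13092, Gle1 and Top1mt (0.982, 0.980 and 0.979). These values describe 6 arrays of 3 groups and carry no test, and the nearest rows of the 2 features had no gene in common.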

How the data were processed

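RNA of 6 sorted B cell samples was measured on Affymetrix mouse ST 1.0 arrays, per the labels' protocols. The authors deposited log2 expression values for each array feature, and the submitters' processing notes name oligo and limma without versions. Background correction, normalization, summarization and genome build are not given in the sources used here. The table has 24743 rows with values from 2.55 to 14.5 and no detection calls. Symbols came from the platform annotation, which gave exactly 1 to 21483 of the distinct rows, several to 1363 and none to 1649. Rows of identical values were kept once, which left 24495.

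Group means of all 6 arrays were fitted in 1 model with limma 3.58.1 in R 4.3.3, and the variances were moderated with eBayes (residual df 3, prior df 3.75). The two-sided p-values were adjusted over all 24495 rows (Benjamini-Hochberg), and intervals used the moderated spread at 95%. The procedure was run on simulated data, and the outcome is not given here or used to judge these rows. With 2 arrays a group, the number of arrays limits the precision.

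Replicate numbers come from the descriptions, while the titles number the same arrays 1 and 3 in MYD88_L265P and in IKK_K171E and 2 and 3 in EV, and no source says what either number marks. Deviations from group means of arrays with the same description number were correlated over all rows. The values were 0.083 (MYD88_L265P and EV), 0.27 (IKK_K171E and EV) and 0.13 (MYD88_L265P and IKK_K171E). Arrays were left unpaired, since no source says that a number marks a shared mouse, culture or day. The calls depend on this choice, as the last section shows.

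In the lists each gene was represented by its row with the highest mean among rows with 1 symbol. Named were all constant region rows with 1 symbol, all single V gene rows, rows with several symbols by their symbols, called genes of the lists (up to 4 a list), and the nearest profiles to Ighm. Naming the V gene rows by the largest called changes and by the 3 highest and 3 lowest means covered all of them. Rows with several symbols that were not called, Jchain, Cd79a, and the called genes Pou2af1, Ets1, Cstf2, Stat6 and those of the marker lists beyond the rule were named after their values were seen. So were the genes that passed only with rows of 1 symbol alone, and Cd163. The members and lists were chosen with earlier results of these data known. Promoter sequences of the V genes were not used here.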

Additional observations from a re-analysis of the deposited data

How the results depend on the processing

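The set of 15 rows, Ighmbp2 among them, had 8 with rows of 1 symbol alone and 14 without the rows of lowest mean. Under the other choices of rows, scaling, variance model, low-signal filter and threshold (a 2-fold change besides), the number called was 0 in each comparison. With the replicate number of the descriptions as a replicate block it was also 0, while calls over the table moved to 376 in IKK_K171E over EV, against 163 without the block. With the title numbers as a replicate block 3 were called in MYD88_L265P over EV (Ighm feature b at 0.56 with limma adjusted p = 0.0428, and Igkv9-120/Igkv1-117 feature a at adjusted p = 0.00775 and feature b at 0.0200), 1 in IKK_K171E over EV (Igkv9-120/Igkv1-117 feature a at 0.0383) and 2 in MYD88_L265P over IKK_K171E (Ighm feature b at 0.0116 and Igkv9-120 at 0.0174). In that fit EV replicate 1 shares its number with no other array and so adds nothing to the comparisons with EV. Leaving out 1 array gave from 0 to 1 called in MYD88_L265P over EV and from 0 to 1 in IKK_K171E over EV, with a lone array of a group taken to vary like the others. Calls over the whole table ran from 22 to 4591 in MYD88_L265P over EV, from 0 to 600 in IKK_K171E over EV and from 4 to 1165 in MYD88_L265P over IKK_K171E.

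For MYD88_L265P over EV, the sign changed with the title numbers as a replicate block to -0.26 for Ighg3/Igha, -0.0626 for Igkv9-120, -0.0859 for Igkv6-14/Igkv6-15, -0.27 for Igkv4-59/Igkc, -0.86 for Igkv9-120/Igkv1-117 feature a and -0.71 for Igkv9-120/Igkv1-117 feature b. Likewise for MYD88_L265P over EV, the sign changed with the title numbers as a replicate block to -0.26 for Igkv4/Igkv19-93/Igkc. With a common median the sign changed in MYD88_L265P over EV to 0.0737 for Ighm feature a and 0.0030 for Igkv4-55. With quantile normalization the sign changed in MYD88_L265P over EV to 0.0355 for Igkv4-55 and -0.0393 for Igkv9-120/Igkv1-117 feature b. Without 1 array log2 fold changes in MYD88_L265P over EV ran from -0.13 to 0.10 for Ighm feature a, from -0.28 to 0.12 for Igkv4-55, from -0.53 to 0.94 for Igkv9-120/Igkv1-117 feature a, from -0.40 to 0.58 for Igkv9-120/Igkv1-117 feature b and from -0.25 to 0.0246 for the lambda row. In the same way log2 fold changes in MYD88_L265P over EV ran from -0.29 to 0.0051 for Ighmbp2. For IKK_K171E over EV, the sign changed with the title numbers as a replicate block to -0.0735 for Ighm feature a, -0.14 for Ighm feature b, -0.36 for Ighg3/Igha, -0.20 for Igkv10-96, -0.17 for Igkv8-30 and -0.59 for Igkv4-59/Igkc. Likewise for IKK_K171E over EV, the sign changed with the title numbers as a replicate block to -0.75 for Igkv9-120/Igkv1-117 feature a, -0.61 for Igkv9-120/Igkv1-117 feature b and -0.53 for Igkv4/Igkv19-93/Igkc. Without 1 array log2 fold changes in IKK_K171E over EV ran from -0.0589 to 0.17 for Ighm feature a, from -0.0659 to 1.29 for Ighm feature b, from -0.0456 to 0.86 for Ighg3/Igha, from -0.16 to 0.99 for Igkv10-96 and from -0.0243 to 0.23 for Igkv6-20. In the same way log2 fold changes in IKK_K171E over EV ran from -0.21 to 0.94 for Igkv8-30, from -0.42 to 0.20 for Igkv9-120, from -0.44 to 0.87 for Igkv4-59/Igkc, from -0.41 to 1.06 for Igkv9-120/Igkv1-117 feature a and from -0.30 to 0.68 for Igkv9-120/Igkv1-117 feature b. In the same way log2 fold changes in IKK_K171E over EV ran from -0.19 to 0.54 for Igkv4/Igkv19-93/Igkc. With a common median the sign changed in MYD88_L265P over IKK_K171E to 0.0046 for Ighm feature a. Without 1 array log2 fold changes in MYD88_L265P over IKK_K171E ran from -0.24 to 0.44 for Ighg3/Igha, from -0.0495 to 0.21 for Igkv6-20, from -0.22 to 0.92 for Igkv8-30, from -0.59 to 0.0648 for Igkv6-14/Igkv6-15 and from -0.34 to 0.98 for Igkv4-59/Igkc. In the same way log2 fold changes in MYD88_L265P over IKK_K171E ran from -0.50 to 0.27 for Igkv9-120/Igkv1-117 feature a, from -0.48 to 0.28 for Igkv9-120/Igkv1-117 feature b, from -0.0903 to 0.63 for Igkv4/Igkv19-93/Igkc and from -0.10 to 0.19 for Ighmbp2. Of the values of single rows under alternatives, 62 changed sign and 10 came to pass the threshold, 3 of which had also changed sign, and 627 did neither; the cause was not tested. The number of arrays limits all of these values, and the files give no signal over background.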
